A study of Mus musculus with 22 samples.

Results

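Hepatocytes of 2-month-old mice lacking EZH1 and EZH2 were compared with hepatocytes of 14-day-old wild-type mice, to ask at which genes adult mutant cells were found at the juvenile level, at the adult level, or at neither. The comparison takes 11 of the 22 RNA-seq libraries of the series: the 6 whose count columns begin with M2.hep.Ezh12 (3 males, 3 females) and the 5 that begin with P14.hep.Wt (3 males, 2 females). The mutants are labelled Alb-Cre;Ezh1-/-;Ezh2f/f: Ezh1 is deleted in every cell of the animal, and the floxed Ezh2 alleles are removed by a Cre recombinase under the albumin promoter, which is active in the hepatocyte lineage. The juvenile group is labelled Wt at postnatal day 14. The 4 wild-type libraries at 2 months (2 males, 2 females) mark the adult level. The 7 mutant libraries at day 14 entered the fit, and their position between the wild-type ages is also given. Both age and genotype differ between the 2 groups compared, so neither difference alone can be read from it. The labels do not say whether the wild-type mice carried Cre, and they number biological replicates without naming animals, so p-values measure the spread between these libraries.

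EZH1 and EZH2 are alternative catalytic subunits of Polycomb repressive complex 2 (PRC2), which with EED and SUZ12 methylates lysine 27 of histone H3. That mark keeps developmental genes silent in cell types that do not use them. Mouse hepatocytes go on maturing after birth: fetal and growth genes are switched off, division slows, and enzymes of drug, steroid and lipid metabolism are switched on. The title of the series puts the complex in the setting of that maturation.

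Totals ran from 6946003 counts (mutant male 3 at 2 months) to 27505582 (mutant female 1 at 2 months), and from 13098256 to 19222753 in the juvenile wild-type libraries. Of 24422 genes in the table, 13493 had enough counts to be tested. Ezh1, which checks the labels, was at 11, 9.4, 10.6, 9.98 and 10.3 CPM (the count of a gene scaled to the size of its library) in the juvenile wild-type libraries, at 8, 7.63, 10.6 and 7.97 CPM in the adult wild-type libraries, and from 1.04 (median 1.18) to 2.13 CPM in the adult mutants. Wild-type values are given males first here and below. Every adult mutant library was below every wild-type library of either age. The log2 difference of adult mutant from juvenile wild-type was −2.96 (SE 0.21, edgeR adjusted p = 2.0e-09). The label hepatocyte was matched by the 25 genes of hepatocyte identity, all of them detected: their summed level was 267731 to 349422 CPM in juvenile wild-type, 217062 to 234676 CPM in adult wild-type and 156393 to 267319 CPM in adult mutants. The labels of the adult mutants are written in another format than those of the other 16 libraries; a difference in handling and the adult mutant group cannot be told apart.

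Each tested gene was placed by 3 differences from one fit, with the sexes weighted equally: adult mutant minus juvenile wild-type, adult mutant minus adult wild-type, and adult wild-type minus juvenile wild-type. A difference was called at an adjusted p under 0.05. Adult mutants differed from juvenile wild-type at 6547 genes (48.5% of those tested), with 3505 higher (26%) and 3042 lower (22.5%). They differed from adult wild-type at 6070 genes (45%), with 3321 higher and 2749 lower, and wild-type differed between the ages at 6737 (49.9%). These 3 comparisons share libraries, so the counts that combine them describe the placement and are not tests of it.

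Adult mutants were called neither above nor below the juvenile level, while differing from the adult level in the direction of the age change, at 1033 genes above the adult level (7.66% of those tested) and 982 below it (7.28%). This placement is called the juvenile level here. The adult level, with the converse calls, held 1213 genes above juvenile (8.99%) and 1248 below (9.25%). At 430 genes (3.19%) adult mutants stood above the juvenile and below the adult level, and at 353 (2.62%) the reverse. Adult mutants exceeded both wild-type ages at 1516 genes (11.2%) and were below both at 965 (7.15%). The remaining 5753 (42.6%) fell in none of these. A p that misses the threshold does not show that levels are the same: the 95% interval of the difference from juvenile wild-type lay within 1 log2 unit of 0 for 672 of the 1033 and 936 of the 982. For the adult level it did so for 1050 of the 1213 and 927 of the 1248.

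**Figure D1:**
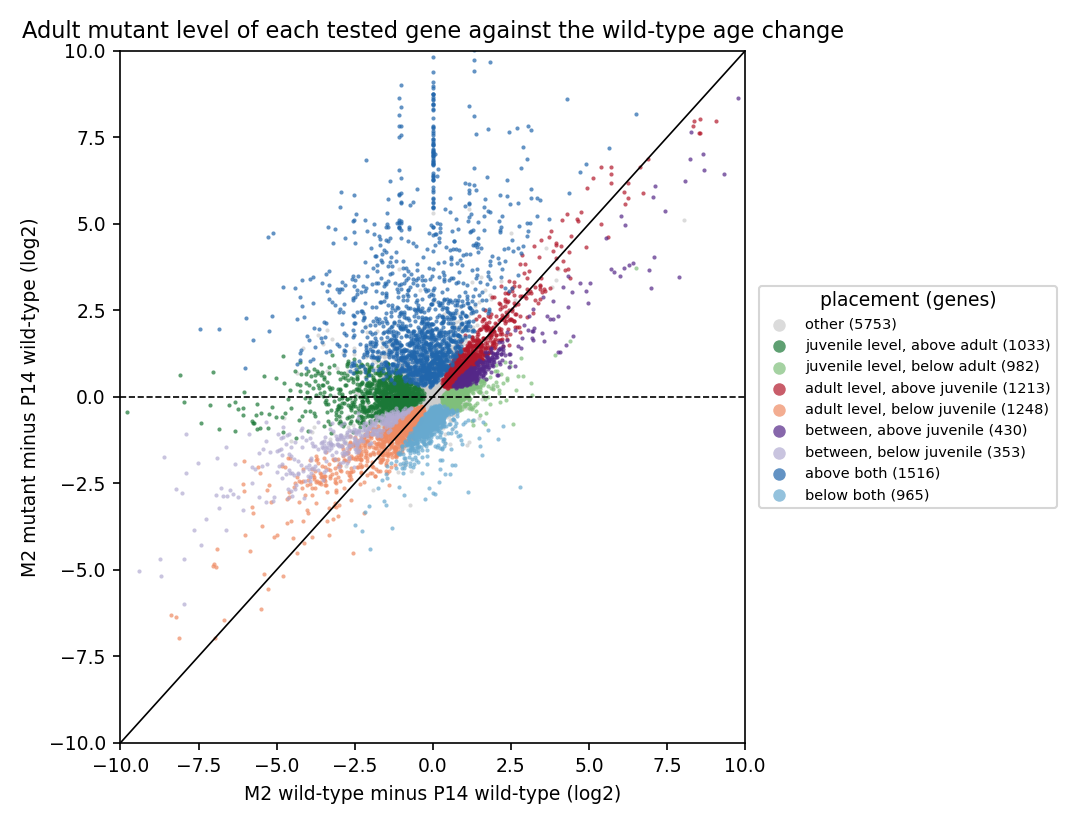
Each point is a tested gene, with the log2 change of wild-type from day 14 to 2 months across and the log2 difference of adult mutant from juvenile wild-type upward. Points on the dashed horizontal line are at the juvenile level and points on the diagonal at the adult level; colours give the placement, and 21 genes lie outside the axes at 10 log2 units.

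Single libraries moved several of these counts. Without mutant male 1 the genes at the juvenile level below adult numbered 610, and without any 1 of the 4 adult wild-type libraries 550 to 633. The genes below both numbered 627, 628 and 639 without adult wild-type male 1, male 2 and female 2. Those between and above juvenile numbered 208 to 253 without any 1 of the adult wild-type libraries and 277, 269 and 237 without juvenile male 1, female 1 and female 2. They numbered 248 and 252 without mutant female 1 and female 2, and the genes between and below juvenile numbered 233 without adult wild-type female 2. The genes lower than in adult wild-type numbered 1659 to 1829 without any 1 adult wild-type library.

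The 250 bases before the RefSeq start of 4 genes, 1 from each of 4 placements, are shown because these genes are among those whose values carry the placements. Igf2bp3 was at the juvenile level, Gsta2 reached the adult level, Zic1 exceeded both ages and Slc17a8 was below both. They are read from the mouse build GRCm38.p6, not the build of the counts, on the coding strand, with each CG in capitals. CG reads the same on both strands and was the only motif searched.
Igf2bp3, chr6:49214955-49215204, minus strand: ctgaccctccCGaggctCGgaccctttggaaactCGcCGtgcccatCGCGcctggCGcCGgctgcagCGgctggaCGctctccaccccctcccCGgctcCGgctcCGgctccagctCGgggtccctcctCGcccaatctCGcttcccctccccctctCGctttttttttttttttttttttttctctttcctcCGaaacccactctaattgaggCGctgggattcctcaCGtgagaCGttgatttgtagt
Gsta2, chr9:78347146-78347395, minus strand: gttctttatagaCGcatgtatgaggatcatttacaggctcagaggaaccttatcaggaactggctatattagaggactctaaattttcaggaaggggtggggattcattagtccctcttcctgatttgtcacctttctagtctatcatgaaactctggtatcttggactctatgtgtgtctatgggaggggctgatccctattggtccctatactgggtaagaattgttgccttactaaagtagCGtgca
Zic1, chr9:91365769-91366018, minus strand: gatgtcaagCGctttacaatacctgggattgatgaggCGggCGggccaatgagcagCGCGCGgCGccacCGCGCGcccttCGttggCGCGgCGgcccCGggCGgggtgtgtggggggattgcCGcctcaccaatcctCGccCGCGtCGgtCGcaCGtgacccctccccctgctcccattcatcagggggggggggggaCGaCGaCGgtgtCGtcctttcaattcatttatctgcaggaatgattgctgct
Slc17a8, chr10:89621250-89621499, minus strand: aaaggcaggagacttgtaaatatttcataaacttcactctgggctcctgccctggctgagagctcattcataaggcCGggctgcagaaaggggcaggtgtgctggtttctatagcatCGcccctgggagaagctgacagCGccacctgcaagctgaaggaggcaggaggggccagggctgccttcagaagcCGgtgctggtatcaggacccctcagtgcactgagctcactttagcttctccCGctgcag
The Zic1 window held 27 CG, a number reached by 8.18% of the 27025 RefSeq promoters cut at the same length, and the Igf2bp3 window held 21, reached by 16.1%. The Slc17a8 window held 5 (reached by 55.5%) and the Gsta2 window 2 (80.5%). Only 76.2% of the tested genes had an entry by symbol, so no comparison of CG content between placements was made.

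Genes that changed at least 2-fold between the wild-type ages were then followed into the adult mutants. Of the 1149 that rose in wild-type, 523 (45.5%) were at the adult level in adult mutants, 326 (28.4%) between, 173 (15.1%) at the juvenile level, 88 above both and 11 below both. Of the 1980 that fell in wild-type, 734 (37.1%) were at the juvenile level, 502 (25.4%) at the adult level, 335 (16.9%) between, 217 (11%) above both and 21 below both. Measured as the percent of the way from the juvenile to the adult wild-type level, the median rising gene had gone 70.3% (quartiles 48.2 and 97.9) and the median falling gene 30.9% (quartiles −9.6 and 59.1). Leaving out each library in turn, the medians ran from 68.1 to 80.1% for rising genes and from 25.9 to 41% for falling genes.

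The 6 adult mutant libraries were spread along both measures. For the rising genes, the median percent of the way was 35.8 in male 1, 63.3 in male 2 and 74.4 in male 3, and 81.8, 74.7 and 85.4 in the 3 females. For the falling genes it was −2.5 in male 1, 45.6 in male 2 and 54.7 in male 3, and 44.2, 38 and 55 in the females. Male 1 was lowest on both and stood at the juvenile level for the falling genes. Every adult mutant library was below every adult wild-type library on both measures. The juvenile mutants lay at 11.6 to 34.7% for rising and −14.4 to 19.3% for falling genes. Without male 1 the adult mutants differed from juvenile wild-type at 3583 genes higher and 3226 lower.

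**Figure D2:**
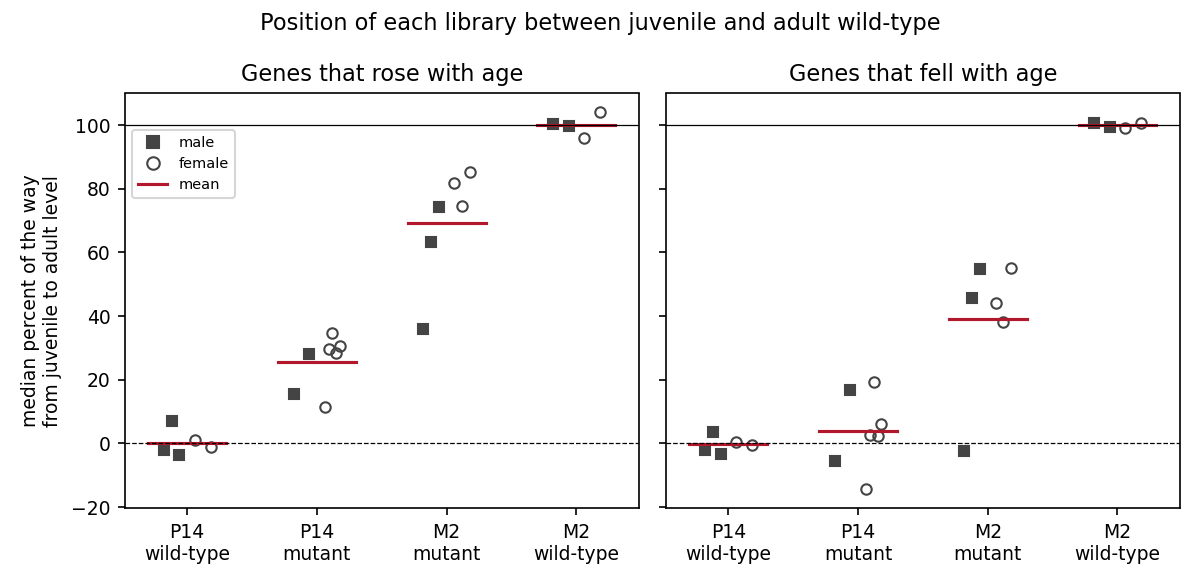
Median percent of the way from the juvenile to the adult wild-type level, by library, for genes that rose (left) and fell (right) at least 2-fold with age in wild-type. Wild-type libraries define 0 and 100; 5 of the 6 adult mutants lie between 63.3 and 85.4 for rising genes and between 38 and 55 for falling genes, with male 1 below them on both.

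Among the PRC2 subunits, the catalytic gene Ezh2 was at 9.26, 9.99, 8.23, 7.22 and 8.69 CPM in juvenile wild-type, 2.98, 5.2, 5.63 and 5.07 CPM in adult wild-type and from 3.08 (median 4.77) to 5.3 CPM in adult mutants. All adult mutants were below all juvenile wild-type libraries and overlapped the adult ones. The log2 difference from juvenile was −0.89 (SE 0.19, edgeR adjusted p = 6.3e-04), and that from adult wild-type was −0.03 (95% interval −0.45 to 0.40). Total Ezh2 reads do not tell whether the transcript is intact, and which exons the floxed allele loses is not stated in the labels. Eed, whose protein binds the methyl mark, was at 9.35, 12.1, 9.88, 8.57 and 9.4 CPM in juvenile and 16.1, 16.7, 14.8 and 17.2 CPM in adult wild-type. Adult mutants ran from 8.75 (median 10.2) to 13.3 CPM, below every adult wild-type library and overlapping the juvenile ones, with a log2 difference from adult wild-type of −0.62 (SE 0.14, edgeR adjusted p = 0.0019). Suz12, needed for the stability of the complex, differed from juvenile wild-type by 0.15 (95% interval −0.14 to 0.44) on the log2 scale and was called in none of the 3 comparisons. It was at the juvenile level below adult when mutant male 3 was left out.

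Among the genes chosen by size at the juvenile level, Igf2bp3 had the largest fitted difference above adult wild-type. That rank depends on adult wild-type females without a count. Genes so chosen have a 95% interval of the difference from juvenile within 1 log2 unit of 0 by that choice. Igf2bp3 is an RNA-binding protein of fetal tissues that is silenced in the adult liver. Igf2bp3 was at 24, 31, 19.8, 22.4 and 19.2 CPM in juvenile wild-type, at 0.34, 1.65, 0 and 0 CPM in adult wild-type, and from 13.6 (median 20.6) to 29.5 CPM in adult mutants. The adult mutants overlapped the juvenile libraries, and none came near an adult wild-type library. The adult wild-type females had no Igf2bp3 count, so only the difference from juvenile is given, −0.16 (95% interval −0.65 to 0.34) on the log2 scale. The CG-rich window printed for Igf2bp3 lies just before its start.

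Anxa2, a calcium-dependent membrane-binding protein, was at 24.2, 28.2, 20.7, 20.4 and 18.1 CPM in juvenile and 1.45, 2.51, 2.52 and 2.38 CPM in adult wild-type, and from 17.8 (median 21.9) to 48.5 CPM in adult mutants. Its highest value was that of male 1, and the other 5 lay within the range of 17.8 to 24.9 CPM. The difference from juvenile was 0.22 (95% interval −0.29 to 0.72) and from adult 3.51 (SE 0.32, edgeR adjusted p = 8.9e-08) on the log2 scale. Trpm6, a magnesium channel, was at 6.54, 2.96, 3.89, 7.34 and 4.49 CPM in juvenile wild-type, 0.255, 0.0867, 0.993 and 0.964 CPM in adult wild-type and 3.27 (median 6.09) to 7.25 CPM in adult mutants. The mutant and juvenile ranges of Trpm6 overlapped and the adult wild-type libraries were all under 1 CPM, with a log2 difference from adult of 3.73 (SE 0.39, edgeR adjusted p = 5.9e-07). For 5330417C22Rik the adult mutants ran from 5.7 (median 11.8) to 12.9 CPM, against 8.99, 7.2, 10.5, 8.92 and 9.28 CPM in juvenile and 0.426, 0.347, 0.463 and 0.642 CPM in adult wild-type.

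Other genes rise with age in wild-type and were at the juvenile level in adult mutants. Gbe1, the glycogen branching enzyme, was at 47.2, 63.3, 42.8, 42.6 and 43.6 CPM in juvenile wild-type and 148, 173, 167 and 176 CPM in adult wild-type. Adult mutants ran from 24.6 (median 45.2) to 48.8 CPM, so that all 6 were below every adult wild-type library. The log2 difference of Gbe1 from juvenile was −0.22 (95% interval −0.68 to 0.24) and from adult −2.04 (SE 0.23, edgeR adjusted p = 1.5e-06). Hopx, a small homeodomain protein that does not bind DNA, was at 6.36, 6.94, 6.82, 7.22 and 10.6 CPM in juvenile, 34, 34.7, 19.1 and 22 CPM in adult wild-type and 4.96 (median 8.08) to 10.2 CPM in adult mutants. The mutant and juvenile ranges of Hopx overlapped, and the log2 difference from adult was −1.80 (SE 0.19, edgeR adjusted p = 5.0e-07). The sulfotransferase Sult2a8 was at 208, 292, 157, 130.3 and 98.3 CPM in juvenile and 1430.4, 1241, 458 and 488 CPM in adult wild-type, with the higher adult values in males. Sult2a8 in adult mutants ran from 50.8 (median 133) to 378 CPM, all below the adult wild-type females, with a log2 difference from juvenile of −0.09 (95% interval −0.83 to 0.65) and from adult of −2.42 (SE 0.37, edgeR adjusted p = 4.9e-05). Cyp27a1, the mitochondrial sterol hydroxylase of bile acid synthesis, was at 83.5, 86, 97.5, 108 and 132 CPM in juvenile, 475, 512, 496 and 491 CPM in adult wild-type and 89.2 (median 123) to 278 CPM in adult mutants. Its difference from adult was −1.86 (SE 0.22, edgeR adjusted p = 2.4e-06) on the log2 scale.

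Among the genes at the adult level, several are low at day 14 in wild-type. Those chosen by size have a 95% interval of the difference from adult within 1 log2 unit of 0 by that choice. Gsta2, a glutathione transferase, was at 0.272, 0.169, 0.319, 0.528 and 0.65 CPM in juvenile wild-type, 45, 34.7, 17.7 and 29 CPM in adult wild-type and from 11.8 (median 25.4) to 61.3 CPM in adult mutants. No adult mutant overlapped a juvenile library, and the mutant range spanned the adult wild-type range. The log2 difference from juvenile was 6.18 (SE 0.55, edgeR adjusted p = 3.9e-08) and that from adult −0.08 (95% interval −0.85 to 0.69). Npr2, the receptor of C-type natriuretic peptide, was at 1.54, 0.847, 3.25, 2.05 and 2.6 CPM in juvenile, 27.5, 27.5, 38.2 and 42.3 CPM in adult wild-type and 20.4 (median 26) to 39 CPM in adult mutants. The adult ranges of Npr2 overlapped, with a log2 difference from juvenile of 3.74 (SE 0.23, edgeR adjusted p = 5.0e-10) and from adult of −0.22 (95% interval −0.63 to 0.18). Sntg2, a syntrophin scaffold protein, rose from at most 0.762 CPM in juvenile wild-type to between 6.25 and 11.7 CPM in adult mutants, against 9.02, 7.46, 6.22 and 5.52 CPM in adult wild-type. Its log2 difference from juvenile was 4.35 (SE 0.26, edgeR adjusted p = 3.9e-10).

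Other genes at the adult level are high at day 14. Fabp5, an epidermal-type fatty acid carrier, was at 92.3, 91.5, 67.2, 122 and 66.3 CPM in juvenile wild-type, 9.36, 10.2, 15.4 and 5.65 CPM in adult wild-type and 7.02 (median 10.7) to 16.4 CPM in adult mutants. Every adult mutant was below every juvenile library, the adult groups overlapped, and the log2 differences were −3.06 (SE 0.31, edgeR adjusted p = 2.6e-07) from juvenile and 0.07 (95% interval −0.63 to 0.76) from adult. Rogdi, a protein found at synapses, was at 44.6, 40.1, 42.7, 45.8 and 45.4 CPM in juvenile, 8.77, 7.89, 6.62 and 5.72 CPM in adult wild-type and 5.85 (median 8.22) to 11.3 CPM in adult mutants, −2.38 (SE 0.16, edgeR adjusted p = 1.0e-09) from juvenile on the log2 scale. Cyp2a22 was placed at the adult level when the sexes were averaged, with −4.52 (SE 0.32, edgeR adjusted p = 2.7e-09) from juvenile. By sex its levels differed: males were at 1.7 and 1.65 CPM in adult wild-type and 8.41, 3.77 and 3.44 CPM in adult mutants, and females at 162 and 167 CPM and 37.1, 64.9 and 18.5 CPM. Adult mutant males were thus above and adult mutant females below the wild-type adults of their sex.

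Between the 2 wild-type ages stood genes whose age change was very large. Mup3, a major urinary protein, was at 2.36, 4.06, 1.47, 0.998 and 1.06 CPM in juvenile wild-type, 14915, 14742, 3907 and 2782 CPM in adult wild-type and 129 (median 251) to 2025 CPM in adult mutants. Every adult mutant was above every juvenile and below every adult wild-type library, with log2 differences of 8.06 (SE 0.80, edgeR adjusted p = 1.7e-07) and −4.00 (SE 0.57, edgeR adjusted p = 2.0e-05). Mup genes are near-identical copies, so reads may have been divided between them and the value of a single copy is uncertain. Wfdc21, a small secreted protein of the whey acidic protein family, was at 2, 5.84, 2.42, 2.05 and 4.02 CPM in juvenile, 207, 200.3, 198 and 209 CPM in adult wild-type and 20.4 (median 39.5) to 57 CPM in adult mutants. The 3 groups of Wfdc21 did not overlap, and the differences were 3.48 (SE 0.43, edgeR adjusted p = 2.2e-06) from juvenile and −2.50 (SE 0.37, edgeR adjusted p = 2.9e-05) from adult on the log2 scale. Elovl6, which lengthens saturated fatty acids, was at 6.99, 8.3, 7.59, 5.4 and 4.61 CPM, 113, 133, 294 and 311 CPM and 16.9 (median 48.6) to 57.2 CPM in the same order, again with no overlap. The differences for Elovl6 were 2.70 (SE 0.57, edgeR adjusted p = 6.5e-04) and −2.26 (SE 0.52, edgeR adjusted p = 0.002). Me1, the cytosolic malic enzyme that supplies reducing power for fatty acid synthesis, was at 11, 11.4, 12, 10.1 and 11.5 CPM in juvenile, 99.1, 111, 102 and 101 CPM in adult wild-type and 21.4 (median 35.4) to 48.5 CPM in adult mutants, with no overlap.

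Genes that fall with age were also caught between. Gpc3, a cell-surface proteoglycan of fetal liver, was at 90.8, 79.5, 71.1, 106 and 76.9 CPM in juvenile wild-type, 0.426, 0.26, 0.0662 and 0.193 CPM in adult wild-type and 16.4 (median 27.6) to 31 CPM in adult mutants. The 3 groups did not overlap, and the log2 differences were −1.75 (SE 0.17, edgeR adjusted p = 1.7e-07) from juvenile and 6.85 (SE 0.32, edgeR adjusted p = 2.0e-11) from adult. H19, the imprinted long noncoding RNA beside Igf2, was at 5681, 4999, 5359, 8202 and 5697 CPM in juvenile wild-type and 0.511, 0.0867, 0.993 and 0.385 CPM in adult wild-type. H19 in adult mutants was at 4.48, 1.6 and 2.49 CPM in males and 21.9, 189 and 306 CPM in females, above all adult wild-type libraries and far below all juvenile ones. The log2 differences of H19 were −8.08 (SE 0.62, edgeR adjusted p = 6.7e-09) and 5.60 (SE 0.78, edgeR adjusted p = 1.6e-05). Igf2, the fetal growth factor, had 474, 328, 681, 1156 and 633 CPM in juvenile wild-type, at most 0.265 CPM in adult wild-type and 0.593 (median 1.67) to 19.9 CPM in adult mutants. The adult wild-type males had no Igf2 count, so only the difference from juvenile is given, −7.40 (SE 0.81, edgeR adjusted p = 8.6e-07) on the log2 scale. Hsd3b1, a steroid dehydrogenase, was at 34.3, 53.1, 57.6, 104 and 64 CPM in juvenile wild-type, 0, 0.26, 0.199 and 0.128 CPM in adult wild-type and 0.356 (median 2.32) to 7.15 CPM in adult mutants.

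**Figure D3:**
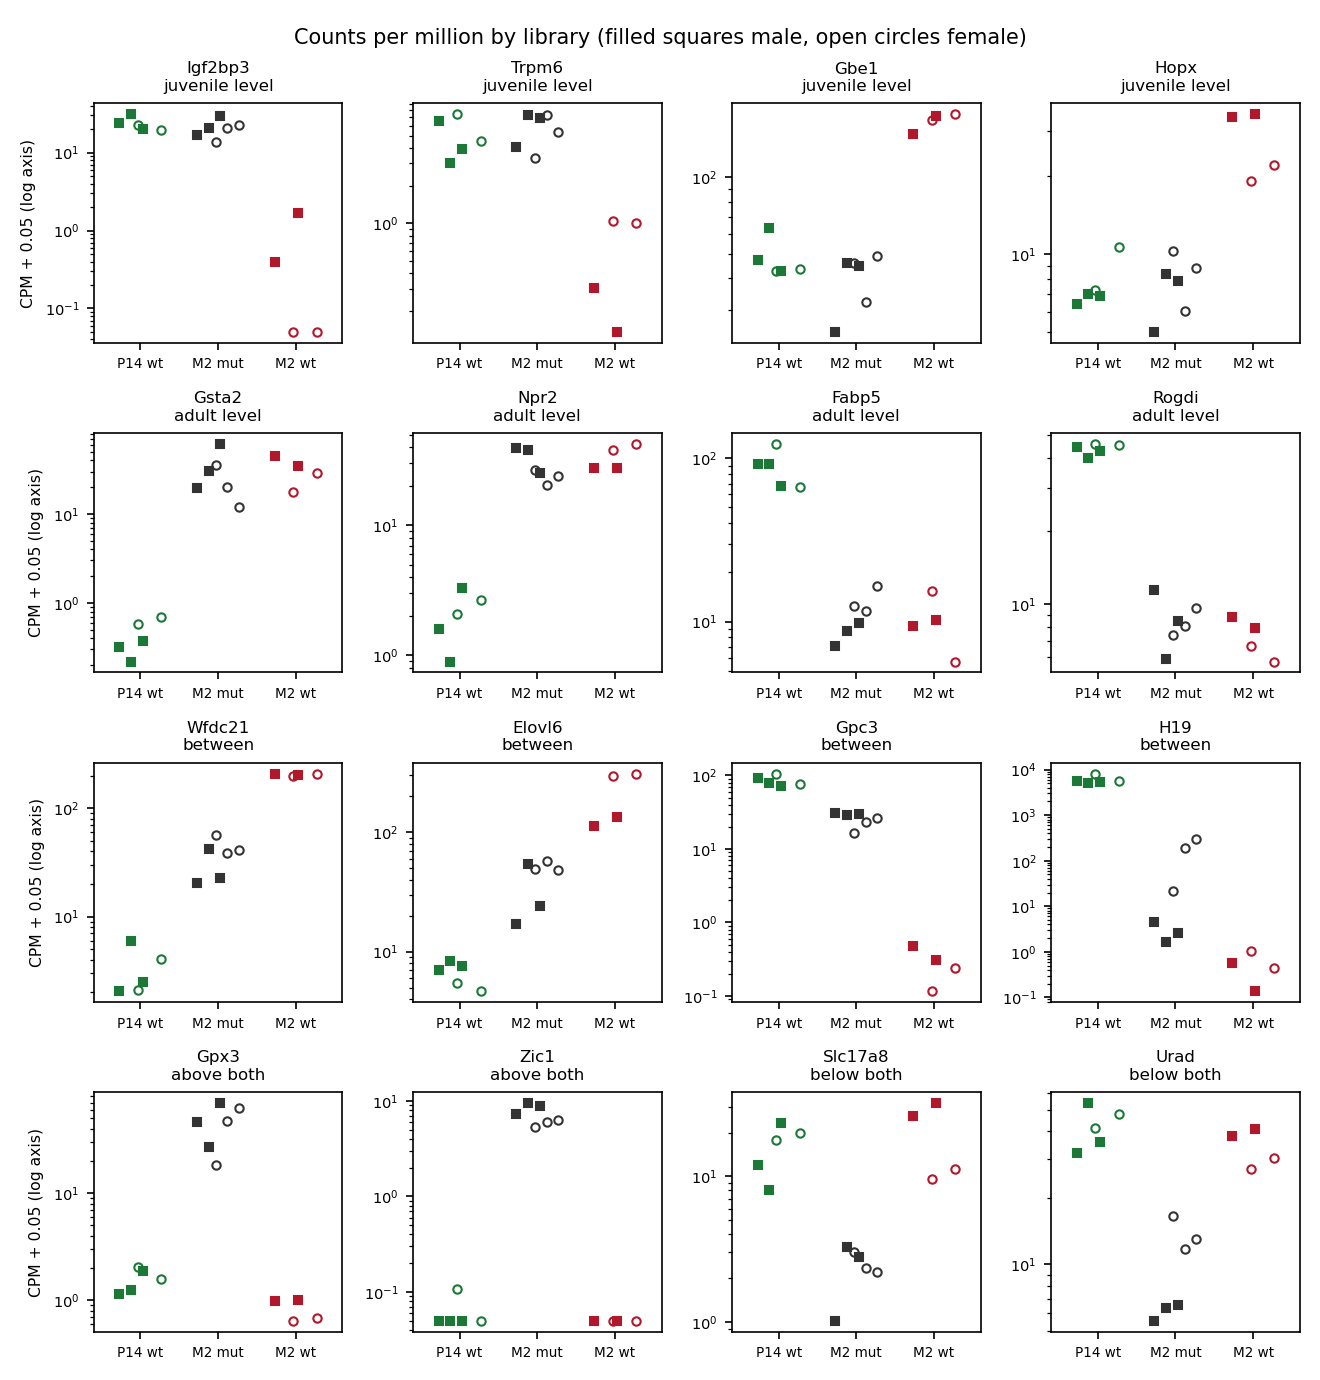
CPM by library on a log axis (0.05 added) for 16 genes of the placements in the panel labels, in juvenile wild-type, adult mutant and adult wild-type; squares are males and circles females. Igf2bp3, Trpm6, Gbe1 and Hopx in adult mutants overlap the juvenile values, Gsta2, Npr2, Fabp5 and Rogdi the adult values, and Gpx3 and Zic1 lie above both.

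Among the genes above both ages are some with low levels in wild-type at either age. Gpx3, the secreted glutathione peroxidase, was at 1.09, 1.19, 1.85, 2 and 1.54 CPM in juvenile wild-type, 0.936, 0.954, 0.596 and 0.642 CPM in adult wild-type and 18.2 (median 46.8) to 69 CPM in adult mutants. The lowest adult mutant was above every wild-type library, with log2 differences of 4.82 (SE 0.40, edgeR adjusted p = 1.9e-08) and 5.85 (SE 0.47, edgeR adjusted p = 2.1e-08). Ly6a, known as the stem cell antigen Sca-1, was at 0.363, 0.677, 0.51, 0.587 and 0.355 CPM, 3.4, 2.6, 5.89 and 5.27 CPM and 38.1 (median 57.3) to 85.3 CPM in the same order. The differences for Ly6a were 6.86 (SE 0.34, edgeR adjusted p = 6.9e-11) from juvenile and 3.83 (SE 0.28, edgeR adjusted p = 7.6e-09) from adult. Osbpl3, a lipid transfer protein, was at 0.908, 1.02, 1.34, 1.59 and 1.83 CPM in juvenile wild-type, 2.13, 5.64, 0.331 and 0.964 CPM in adult wild-type and 19.1 (median 35.9) to 60.4 CPM in adult mutants, 4.58 (SE 0.27, edgeR adjusted p = 3.4e-10) above juvenile on the log2 scale. For Osbpl3 the adult mutant males were at 50, 60.4 and 52.5 CPM and the females at 21.8, 19.2 and 19.1 CPM.

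Zic1, a zinc finger factor of neural development, had 0 counts in 4 of the 5 juvenile and all 4 adult wild-type libraries and 7.26, 9.38 and 8.77 CPM in adult mutant males and 5.29, 5.87 and 6.3 CPM in females. Set against 3 counts over the adult wild-type group, the adult mutants were at least 129-fold higher. Irx5, a homeodomain factor, had no count in either wild-type age and 2.15 (median 2.85) to 3.93 CPM in adult mutants, at least 72-fold above juvenile and at least 53.6-fold above adult wild-type. For both factors the males and females of the adult mutants did not overlap, with the higher values in males.

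Several genes had their lowest level in adult mutants, below both wild-type ages. Slc17a8, a vesicular glutamate transporter, was at 11.9, 7.96, 23.4, 17.7 and 19.8 CPM in juvenile wild-type, 26, 31.8, 9.6 and 11.2 CPM in adult wild-type and 0.968 (median 2.51) to 3.21 CPM in adult mutants. The highest adult mutant was below the lowest wild-type library of either age, with log2 differences of −2.80 (SE 0.34, edgeR adjusted p = 1.9e-06) and −2.87 (SE 0.35, edgeR adjusted p = 3.4e-06). Urad, an enzyme of uric acid breakdown, was at 32, 53.7, 35.8, 41.6 and 48.2 CPM in juvenile, 38.1, 41.2, 27.1 and 30.4 CPM in adult wild-type and 5.51 (median 9.13) to 16.5 CPM in adult mutants. The differences for Urad were −2.22 (SE 0.15, edgeR adjusted p = 1.5e-09) from juvenile and −1.88 (SE 0.16, edgeR adjusted p = 2.9e-08) from adult. Leap2, a liver-made peptide that blocks the ghrelin receptor, was at 41.9, 54.8, 32.5, 36.7 and 39.1 CPM, 19.6, 24.4, 20.7 and 20.5 CPM and 4.11 (median 5.01) to 9.14 CPM in the same order, −2.84 (SE 0.35, edgeR adjusted p = 2.4e-06) from juvenile. Acp1, a low molecular weight phosphatase, was at 31.3, 44.5, 19.5, 24.9 and 18.8 CPM in juvenile wild-type, 42.8, 47.2, 36.1 and 47 CPM in adult wild-type and 4.97 (median 7.2) to 9.3 CPM in adult mutants. Acp1 differed by −1.96 (SE 0.18, edgeR adjusted p = 7.5e-08) from juvenile and −2.68 (SE 0.19, edgeR adjusted p = 4.1e-09) from adult wild-type.

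The gene lists were read against all tested genes, of which 26% were higher and 22.5% lower than in juvenile wild-type, with a median log2 difference of 0.04. Of 27 tested genes of the fetal and neonatal hepatocyte, 15 were higher in adult mutants than in juvenile wild-type, all 15 being above both ages, and 7 were lower, with a median of 1.20. Igf2bp1, the relative of Igf2bp3, was among the 15, with at most 1 count in any wild-type library and 1.75 (median 3.58) to 5.44 CPM in adult mutants. Spp1, the secreted phosphoprotein osteopontin, was at 7.54, 19.1, 13.3, 15.1 and 14.3 CPM in juvenile, 3.32, 5.64, 3.64 and 6.42 CPM in adult wild-type and 35.5 (median 98) to 185 CPM in adult mutants, 2.75 (SE 0.39, edgeR adjusted p = 1.2e-05) above juvenile. Afp, the fetal serum protein, went the other way: 117, 99.1, 126, 261 and 77.3 CPM in juvenile wild-type and 1.37 (median 1.86) to 4.15 CPM in adult mutants, against 0.34, 0.867, 0.662 and 0.321 CPM in adult wild-type. The log2 difference of Afp from juvenile was −6.00 (SE 0.38, edgeR adjusted p = 7.5e-10).

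Of 20 tested imprinted and growth genes, 5 were higher and 8 lower than in juvenile wild-type (median −0.19). Besides H19 and Igf2, the growth-restraining genes Grb10 and Cdkn1c were between the ages. Grb10 was at 63.5, 44.3, 58.9, 75.1 and 66.9 CPM in juvenile, 2.47, 1.99, 3.24 and 2.83 CPM in adult wild-type and 14.1 (median 20.5) to 24.5 CPM in adult mutants, and the 3 groups did not overlap. Cdkn1c was at 41.9, 45.7, 21.7, 31.7 and 22.4 CPM, 0.936, 1.3, 2.45 and 3.4 CPM and 2.65 (median 4.24) to 6.79 CPM in the same order, −2.92 (SE 0.25, edgeR adjusted p = 2.1e-08) from juvenile. Igf2r, Meg3, Ndn, Ppp1r9a and Sgce were at the juvenile level above adult.

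Of 69 tested developmental regulators, among 106 listed, 53 were above both ages. The list was drawn up with results of these data known, and 35 of the 69 had no count in juvenile wild-type and passed the count filter through the mutants, so the number is a description. Their median log2 difference from juvenile was 6.38, or 4.67 with the genes at 0 set at their lower bounds. Summed over the list, juvenile wild-type libraries had 51 to 66.9 CPM, adult wild-type 34.5 to 45.4 and adult mutants 162 to 235. Hoxa3, Meis1, Meis2, Tbx2, Tbx20 and Wnt5a were at the juvenile level above adult, 3 of them without adult wild-type male 1 or female 2.

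The liver's own transcription factors gave a mixed picture, with 5 of 27 higher and 10 lower than in juvenile wild-type (median −0.16). The 5 became 3 without juvenile wild-type male 1, female 1 or female 2, mutant male 2 or mutant female 1. Hnf4a, the nuclear receptor that drives much of the hepatocyte program, was at 432, 476, 539, 582 and 588 CPM in juvenile, 618, 602, 621 and 752 CPM in adult wild-type and 277 (median 308) to 338 CPM in adult mutants. All adult mutants were below all wild-type libraries of both ages, with log2 differences of −0.78 (SE 0.11, edgeR adjusted p = 8.9e-06) and −1.07 (SE 0.11, edgeR adjusted p = 6.2e-07). Cebpa, a factor of metabolic genes, differed by −0.90 (SE 0.13, edgeR adjusted p = 1.6e-05) from juvenile and Foxa3, a forkhead factor of the liver, by −1.01 (SE 0.11, edgeR adjusted p = 4.6e-07). Nr1h3 and Nr1i2, the receptors of oxysterols and of foreign compounds, were also below both. Zbtb20, a repressor of fetal liver genes that rises after birth, was placed at the adult level when the sexes were averaged. It was at 31.1 (median 35.6) to 42.6 CPM in adult mutants, against 16.5, 15.9, 24, 19.3 and 14.3 CPM in juvenile and 51.1, 45.3, 34.2 and 32.5 CPM in adult wild-type. Every adult mutant was below the adult wild-type males for Zbtb20. Sall4, a factor of fetal liver, was above both at 0.921 (median 1.93) to 3.2 CPM in adult mutants, against at most 0.414 CPM in any wild-type library.

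Genes of the urea cycle and amino acid breakdown were lower at 17 of 28 and higher at 4, with a median of −0.56, and 14 of the 28 were below both ages (12 to 14 when each library was left out). Asl, the lyase that releases arginine in the urea cycle, was at 399, 435, 442, 507 and 641 CPM in juvenile, 619, 671, 508 and 549.6 CPM in adult wild-type and 113 (median 178) to 239.6 CPM in adult mutants. No adult mutant overlapped a wild-type library, with log2 differences of −1.49 (SE 0.14, edgeR adjusted p = 6.7e-08) and −1.73 (SE 0.14, edgeR adjusted p = 2.9e-08). Gldc, the glycine decarboxylase, was at 218, 156, 212, 233 and 264 CPM, 117, 112, 100.5 and 146 CPM and 42.7 (median 53) to 81.4 CPM in the same order, −1.98 (SE 0.17, edgeR adjusted p = 2.1e-08) from juvenile. Arg1, Cps1, Fah, Gls2, Gnmt, Hal, Hgd, Mat1a, Nags, Sds, Sdsl and Uroc1 were the others below both. Tdo2, which opens the tryptophan ring, was between the ages at 665 (median 1185) to 1667 CPM in adult mutants, against 517, 779.8, 501, 507 and 491 CPM in juvenile and 3378, 3562, 1399 and 2269 CPM in adult wild-type.

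Enzymes of drug and steroid metabolism were higher than juvenile at 29 of 52 cytochrome P450 genes and lower at 11 (median 0.69), and 17 of the 52 were at the adult level above juvenile. Cyp7b1, an oxysterol hydroxylase, was at 1.09, 2.29, 2.3, 1.29 and 0.887 CPM in juvenile, 410.4, 319.8, 30.6 and 25.6 CPM in adult wild-type and 29.4 (median 72.8) to 289.8 CPM in adult mutants, 5.91 (SE 0.49, edgeR adjusted p = 2.0e-08) above juvenile. Its placement at the adult level averages the sexes, and every adult mutant was below the adult wild-type males. Cyp2c55 was above both: 14.5, 24.9, 9.57, 6.75 and 9.17 CPM in juvenile wild-type, 18.6, 27.6, 16.6 and 11.2 CPM in adult wild-type and 130.0 (median 216) to 374 CPM in adult mutants, with 4.28 (SE 0.32, edgeR adjusted p = 4.9e-09) from juvenile. Cyp2c70, the enzyme that makes muricholic acids, was below both at 178 (median 279.7) to 375 CPM, −1.82 (SE 0.19, edgeR adjusted p = 3.4e-07) from juvenile. Members of these families, of the Cyp2c group above all, are close copies, so their counts may be divided between copies. Of 46 tested conjugating enzymes 26 were higher and 7 lower (median 0.97), with 13 at the adult level above juvenile and 10 between. Gstm1, a glutathione transferase, was at 198, 157, 189, 181 and 281 CPM in juvenile, 1146, 1004, 845 and 931 CPM in adult wild-type and 707 (median 1058) to 1403 CPM in adult mutants, with 2.30 (SE 0.24, edgeR adjusted p = 2.5e-07) from juvenile and 0.05 (95% interval −0.43 to 0.53) from adult.

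Of 25 bile acid genes 8 were higher and 9 lower (median 0.09). The 8 became 5 without juvenile wild-type female 1 or female 2 or mutant female 1. Akr1d1, the reductase of bile acid and steroid hormone precursors, was below both: 272, 311, 243, 244 and 238 CPM in juvenile, 240.0, 273, 320.5 and 392 CPM in adult wild-type and 52.2 (median 129) to 188 CPM in adult mutants. Its log2 difference from juvenile was −1.15 (SE 0.18, edgeR adjusted p = 3.4e-05). Slc10a2, a bile acid uptake carrier, had no count in 4 of 5 juvenile libraries and reached 3.84 (median 6.9) to 18.3 CPM in adult mutants, against 9.19, 11.2, 11.3 and 17 CPM in adult wild-type.

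Cholesterol synthesis genes were higher than juvenile at 15 of 24 with a median of 1.48. At the adult level above juvenile stood 14 of the 24, a count of 8 without juvenile wild-type female 1 and 9 without female 2. Insig1, the sterol sensor that holds back the pathway, was at 48.9, 39.2, 31.1, 24.6 and 33.2 CPM in juvenile, 119.8, 137, 167 and 127 CPM in adult wild-type and 66.5 (median 103) to 202 CPM in adult mutants, 1.80 (SE 0.38, edgeR adjusted p = 6.8e-04) above juvenile. Idi1, an early enzyme of the pathway, was at 2, 4.49, 1.72, 0.939 and 1.12 CPM, 14.6, 12.5, 24.7 and 33.7 CPM and 6.17 (median 13) to 31.7 CPM in the same order. The log2 difference of Idi1 from juvenile was 3.11 (SE 0.67, edgeR adjusted p = 7.7e-04).

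Of 23 lipogenic genes 9 were higher and 5 lower (median 0.06). The 9 became 5 without juvenile wild-type male 2, female 1 or female 2, or mutant female 2. Scd1, the desaturase of the liver, reached the adult range at 1167 (median 3964) to 6165 CPM in adult mutants, against 21.3, 15.3, 14.7, 10.6 and 12.3 CPM in juvenile and 3516, 5777, 5918 and 6191 CPM in adult wild-type, with 8.04 (SE 0.82, edgeR adjusted p = 2.3e-07) from juvenile and −0.53 (95% interval −1.70 to 0.65) from adult. Scd2, the desaturase of the fetal liver, was above both at 13.7 (median 64.2) to 116 CPM, against 5.45, 3.47, 5.74, 4.81 and 4.2 CPM in juvenile and 1.45, 1.3, 2.18 and 2.25 CPM in adult wild-type. Pklr, the liver pyruvate kinase, was below both: 123, 135, 174, 162 and 171 CPM in juvenile, 239, 197, 284 and 218 CPM in adult wild-type and 33 (median 55.7) to 76.6 CPM in adult mutants, with −1.50 (SE 0.24, edgeR adjusted p = 5.3e-05) from juvenile. Of 30 fatty acid oxidation genes 7 were higher and 12 lower (median −0.14). Of 17 genes of growth hormone signalling 3 were higher and 8 lower (median −0.64), among the lower Stat5a, which carries that signal to the nucleus and was at the adult level at 6.04 (median 7.58) to 11.6 CPM, against 19.4, 15.2, 22.8, 23 and 20.7 CPM in juvenile wild-type. Of 35 further carriers 16 were higher and 13 lower (median 0.15). Slc22a5, the carnitine carrier, reached the adult level at 23.4 (median 30.6) to 41 CPM, against 6.17, 5.76, 7.33, 6.69 and 6.5 CPM in juvenile and 32.5, 27.6, 31.4 and 27.8 CPM in adult wild-type, 2.26 (SE 0.17, edgeR adjusted p = 5.0e-09) from juvenile.

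Among 39 secreted plasma proteins 6 were higher and 19 lower than in juvenile wild-type (median −0.38), and 13 were at the adult level below juvenile. Itih3, a hyaluronan-binding serum protein, was at 2969, 2869, 2381, 3142 and 2806 CPM in juvenile, 678, 723, 1156 and 1190.5 CPM in adult wild-type and 719 (median 1070.0) to 1310.4 CPM in adult mutants, −1.46 (SE 0.16, edgeR adjusted p = 4.2e-07) from juvenile. C9, the last component of the complement pore, was placed at the adult level when the sexes were averaged. It was at 57.5, 104, 46.7, 35.7 and 41.2 CPM, 1043, 877, 338 and 338 CPM and 431 (median 463) to 818 CPM in the same order. The log2 differences of C9 were 3.43 (SE 0.23, edgeR adjusted p = 1.5e-09) from juvenile and −0.03 (95% interval −0.47 to 0.41) from adult. Adult mutant males were thus below and adult mutant females above the wild-type adults of their sex. F11, a clotting factor, was below both at 20.3 (median 29.8) to 52.8 CPM, against 136, 150.1, 126, 144 and 127 CPM in juvenile and 107, 92.6, 89.4 and 67.3 CPM in adult wild-type. Serpina7, the thyroxine-binding globulin, was above both at 111 (median 173) to 312 CPM, against 75.8, 68.7, 42.2, 73.8 and 34.4 CPM in juvenile and 11.7, 14, 23.8 and 29 CPM in adult wild-type. Among the acute phase proteins, 11 of 30 exceeded the juvenile level and 6 were under it (median 0.21). Of 25 hepatocyte identity genes 4 were higher and 13 lower (median −0.51), and the 4 became 2 without juvenile wild-type female 1. Apoa1, the main protein of high-density lipoprotein, was at the adult level when the sexes were averaged: 16468, 21005, 13949.6, 17236 and 17062 CPM in juvenile wild-type, 6243, 7749.5, 4255 and 4406 CPM in adult wild-type and 3089 (median 5168) to 6236 CPM in adult mutants. Every adult mutant was below the adult wild-type males for Apoa1.

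Zonal genes were read on both sides of the liver lobule. Of 26 genes of the central vein side 9 were higher and 4 lower than in juvenile wild-type (median 0.34), and of 26 of the portal side 7 were higher and 15 lower (median −0.53). Against adult wild-type, 14 of the central vein genes were higher and 6 lower. Their summed level was 7843 to 11155 CPM in juvenile wild-type, 14523 to 17890 CPM in adult wild-type and 8024 to 13792 CPM in adult mutants. Slc13a3 and Slc1a4 of that list were between the ages and below juvenile, and Ahr was below both. Slc1a2, a glutamate carrier of pericentral hepatocytes, was above both: 23.5, 31.8, 63.5, 40.6 and 44.5 CPM in juvenile, 107, 129.9, 149 and 173 CPM in adult wild-type and 350.1 (median 409) to 434 CPM in adult mutants, 3.27 (SE 0.34, edgeR adjusted p = 2.8e-07) from juvenile. Slc22a3, an organic cation carrier, was at 2.54, 2.12, 2.81, 2.41 and 2.84 CPM, 1.36, 1.13, 1.26 and 1.61 CPM and 16.1 (median 30.6) to 42.9 CPM in the same order. The portal list shares Asl, Gldc and other genes with the urea and amino acid list.

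Cell cycle genes were lower than in juvenile wild-type at 47 of 50 and higher at 1, with a median of −2.05. By placement, 26 were at the adult level below juvenile, 16 between and 4 below both. Without mutant male 1 these became 40 at the adult level and 3 between, and the 16 became 7, 3, 3 and 9 without adult wild-type male 1, male 2 and female 2 and mutant female 1. The 4 below both became 2 without adult wild-type male 1 or adult wild-type female 1. The summed level of the list was 554 to 1028 CPM in juvenile wild-type, 135 to 292 CPM in adult wild-type and, in adult mutants, 422, 269 and 279 CPM in males and 464, 395 and 368 CPM in females. Rrm2, a subunit of the ribonucleotide reductase, was below both: 21.2, 21.5, 20, 15.3 and 25.8 CPM in juvenile, 5.87, 6.68, 9.53 and 7.71 CPM in adult wild-type and 1.07 (median 2.15) to 3.87 CPM in adult mutants, −3.13 (SE 0.40, edgeR adjusted p = 3.9e-06) from juvenile. Cenpa, the centromere histone, was at the adult level at 2.4 (median 3.61) to 5.08 CPM, against 11.3, 13, 11.7, 9.75 and 11.9 CPM in juvenile wild-type. The exception was Ccnd1, the G1 cyclin, above both at 126 (median 168) to 245 CPM in adult mutants, against 55.3, 68.2, 54.7, 50 and 66.7 CPM in juvenile and 7.92, 6.94, 101 and 86.8 CPM in adult wild-type. Its log2 difference from juvenile was 1.55 (SE 0.25, edgeR adjusted p = 4.7e-05).

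Of 24 cell cycle inhibitors and p53 targets 12 were higher and 4 lower than in juvenile wild-type (median 0.79), and 9 were above both ages (8 or 9 when each library was left out). Cdkn2b, which encodes the CDK inhibitor p15, had at most 1 count in any wild-type library and 0.802 (median 1.37) to 2.12 CPM in adult mutants. Eda2r, a p53 target receptor, was at 0.363, 0.169, 0.446, 0.294 and 0.118 CPM in juvenile, 0.255, 0.0867, 1.26 and 0.642 CPM in adult wild-type and 5.3 (median 6.69) to 11.9 CPM in adult mutants, 4.79 (SE 0.50, edgeR adjusted p = 3.2e-07) from juvenile. Of 24 genes of liver tumours and progenitors 9 were higher and 6 lower (median 0.82), and the 9 were above both. Ntrk2, a neurotrophin receptor, was at 17.1, 22.5, 14, 9.16 and 14 CPM, 0.255, 0.347, 7.74 and 13.4 CPM and 87.6 (median 115) to 146 CPM in the same order, 3.04 (SE 0.24, edgeR adjusted p = 8.3e-09) from juvenile. Cldn7, a tight junction protein, was at most 0.237 CPM in wild-type and 2.64 (median 6.42) to 13.4 CPM in adult mutants. Of 21 immediate early genes 9 were higher and 3 lower (median 0.78), the 3 being 1 or fewer without any 1 of 7 libraries.

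**Figure D4:**
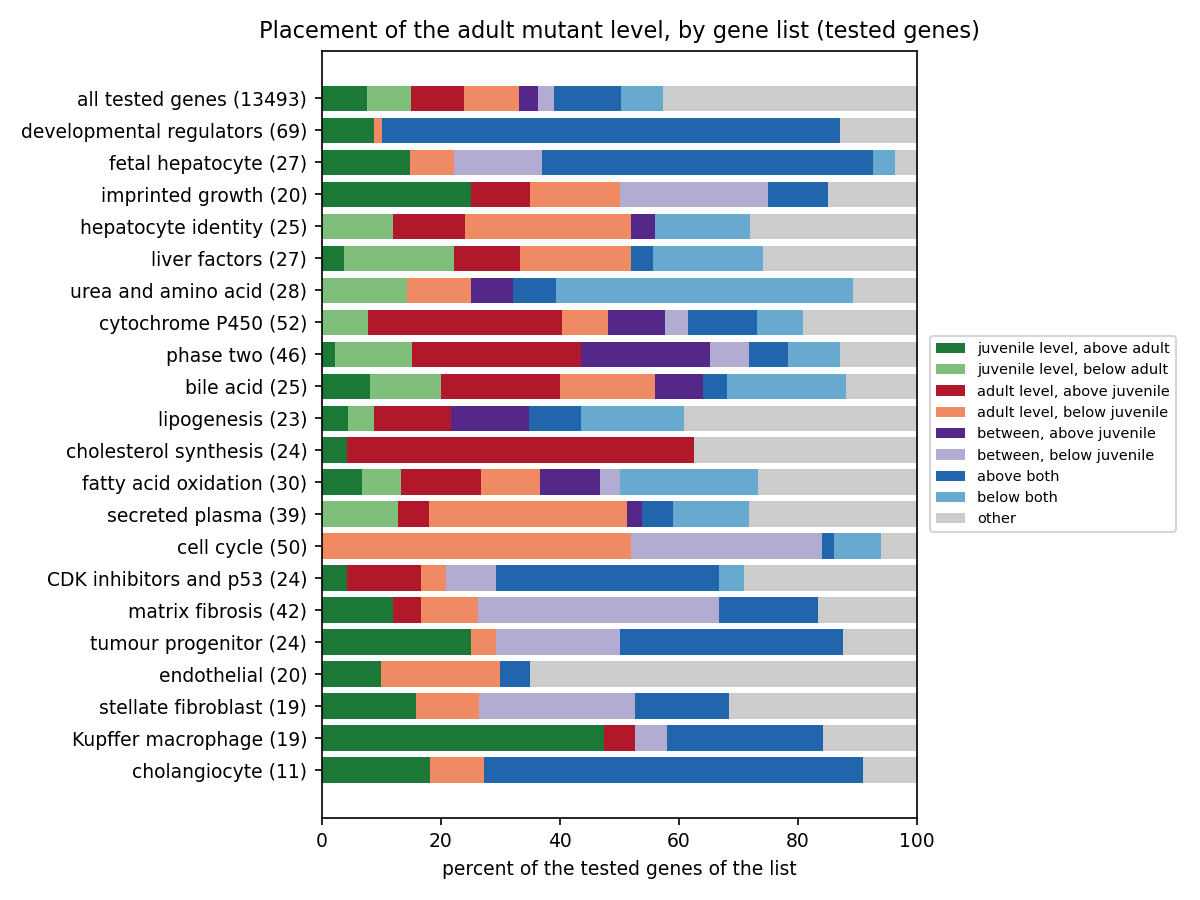
Share of the tested genes of each list in each placement, as percent, with the number tested in brackets and all tested genes on top. The developmental list is mostly above both, cholesterol synthesis mostly at the adult level, and 14 of 28 urea and amino acid genes are below both.

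Markers of other liver cells were measured in the same libraries. Summed over its list, each of the endothelial, stellate, Kupffer, cholangiocyte, lymphocyte and granulocyte markers was highest in male 1 among the 6 adult mutants. The endothelial sum was 850.3 CPM in male 1 and 239 to 491 CPM in the other 5, against 436 to 714 CPM in juvenile and 262 to 394 CPM in adult wild-type. The Kupffer sum was 1053 CPM in male 1 and 401 to 658 CPM in the others, against 361 to 492.7 CPM in juvenile and 259 to 328 CPM in adult wild-type. The cholangiocyte sum was 104 to 283 CPM in adult mutants, 50.4 to 57.6 CPM in juvenile and 19.4 to 31.3 CPM in adult wild-type, with no overlap. Fewer cells of a type and less RNA per cell cannot be told apart in such libraries, and the part of these markers in the other results was not tested.

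By call, 2 of 20 tested endothelial markers were higher and 5 lower than in juvenile wild-type, the 5 being 13 without mutant male 1 and the 2 being fewer without any 1 of 11 libraries. Of 19 stellate markers 4 were higher and 7 lower, the 4 being 2 without juvenile wild-type female 1 or mutant female 1. Of 19 Kupffer markers 6 were higher and 1 lower, the 1 being 4 without male 1. Marco, a scavenger receptor of Kupffer cells, was between the ages, and Ptprc, the leukocyte antigen CD45, was above both: 6.99, 9.65, 12.6, 6.52 and 3.9 CPM in juvenile, 7.15, 7.63, 4.96 and 7 CPM in adult wild-type and 9.48 (median 19.2) to 33.8 CPM in adult mutants. Of 14 lymphocyte markers 5 were higher, the 5 being 2 or 3 without juvenile wild-type male 1 or female 2, male 1 or mutant female 2. Of 14 granulocyte markers 10 were at the juvenile level, and of 8 erythroid markers 3 were lower. Of 11 cholangiocyte markers 7 were higher and 1 lower. Pkhd1, the fibrocystin of bile duct cilia, was at 23, 19.2, 20.7, 19 and 18.4 CPM in juvenile, 5.96, 6.16, 18.7 and 13.1 CPM in adult wild-type and 42.7 (median 51.6) to 84.1 CPM in adult mutants, 1.51 (SE 0.19, edgeR adjusted p = 2.6e-06) from juvenile. Spp1 and Cldn7 above are also expressed by bile duct cells. Of 42 matrix genes 10 were higher and 21 lower (median −0.86). Against adult wild-type, 24.6% of all tested genes were higher, but 18 of 19 Kupffer, 13 of 14 granulocyte and 13 of 19 stellate markers. So were 11 of 14 lymphocyte and 10 of 11 cholangiocyte markers, with no marker of these lists lower. Of endothelial markers 3 of 20 were higher, and of 8 erythroid markers 1 was higher and 1 lower. By placement, 9 of 19 Kupffer markers were at the juvenile level above adult, as were 7.66% of all tested genes.

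The change from juvenile wild-type to adult mutant differed between the sexes at 30 genes (0.222% of those tested), 13 with the higher change in males (0.0963%) and 17 in females (0.126%). These counts rest on single libraries. The 13 became 283 without mutant male 3 and 76 without juvenile male 3, and 3 to 7 without any 1 of the other juvenile wild-type libraries, any adult wild-type library, mutant male 2, or mutant female 1 or 2. The 17 became 597 and 48 without the same 2 males, and 4 to 11 without juvenile wild-type male 1, male 2, female 1 or female 2, adult wild-type male 1 or male 2, or mutant female 2.

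Elovl3, a fatty acid elongase of male liver, was at 0.272, 1.1 and 0.701 CPM in juvenile males, 40.2 and 53.3 CPM in adult wild-type males and 3.51, 15.2 and 4.86 CPM in adult mutant males. In females Elovl3 was at 0.763 and 1.42 CPM, 1.06 and 1.67 CPM and 0.0594, 0.131 and 0.154 CPM in the same order. Mutant males were thus part of the way up and mutant females below both ages, and the male minus female log2 difference of the change was 6.83 (SE 1.02, edgeR adjusted p = 0.0036). That call was lost without juvenile wild-type female 2. Cyp2b9, a female P450, was at 475, 438 and 462 CPM in juvenile males, 1.53 and 0.694 CPM in adult wild-type males and 19.8, 44.4 and 41.5 CPM in adult mutant males. In females Cyp2b9 was at 403 and 399 CPM, 813 and 664 CPM and 295, 587 and 357 CPM. The fall of Cyp2b9 was not complete in mutant males, and the difference between the sexes was −3.75 (SE 0.50, edgeR adjusted p = 0.0021).

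Slc22a27, an organic anion carrier, was at 81.1, 127 and 61.2 CPM in juvenile males and 58.7 and 62.7 CPM in juvenile females. In adult mutants it was at 0.847, 0.481 and 0.119 CPM in males and 8.02, 8.29 and 5.76 CPM in females, against 0.0851 and 0.26 CPM and 36.6 and 43.2 CPM in adult wild-type. Mutant females were below females of both wild-type ages, mutant males were under 1 CPM as were adult wild-type males, and the difference was −4.30 (SE 0.55, edgeR adjusted p = 0.002). Esr1, the estrogen receptor, was below both ages in mutant males at 11.6, 14.5 and 12.7 CPM, against 40.8, 37 and 53.2 CPM in juvenile and 21.5 and 28.4 CPM in adult wild-type males. Esr1 in females was at 73.9, 45.8 and 56.9 CPM in adult mutants, against 44.3 and 50.3 CPM and 70.1 and 82.4 CPM, with a difference between the sexes of −2.08 (SE 0.31, edgeR adjusted p = 0.0036), not called without juvenile wild-type female 1. Mmd2, a membrane protein, was at 7.8, 6.57 and 3.91 CPM in mutant males and 19.1, 27.1 and 20.1 CPM in mutant females, against 1.11 and 1.65 CPM and 7.41 and 7.32 CPM in adult wild-type, −2.71 (SE 0.44, edgeR adjusted p = 0.0077). The Mmd2 call was lost without juvenile wild-type female 1 or female 2. Tff3, a mucosal peptide, was at 13.1, 29.2 and 26.3 CPM in mutant males and 1.4, 1.24 and 1.77 CPM in mutant females, against 2.64 and 1.56 CPM and 0.0662 and 0.0642 CPM in adult wild-type and at most 3.13 CPM in juvenile wild-type. Its difference between the sexes, 4.40 (SE 0.70, edgeR adjusted p = 0.0063), was not called without juvenile wild-type female 2.

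Of 35 tested genes listed as higher in adult males, 23 were higher and 5 lower than in juvenile wild-type (median 1.54). In males the 3 mutant libraries lay between all juvenile and all adult wild-type libraries at 17 of the 35, where 2.65% of all tested genes did. Only genes whose wild-type libraries separate with age can lie between. In males 32 of the 35 rose in this way, against 31.3% of all tested genes, so 2.65% is not a like baseline. Slco1a1, an organic anion carrier, was at 43.3, 233 and 267 CPM in mutant males and 2.91, 1.31 and 10.2 CPM in mutant females, against 1052 and 866 CPM and 148 and 72.6 CPM in adult wild-type and at most 0.423 CPM in juvenile wild-type. C6, a complement component, was above its adult level in both sexes: 360.5, 535 and 312 CPM in mutant males against 233 and 220.1 CPM in wild-type males, and 98.6, 73 and 108 CPM in mutant females against 11 and 12.5 CPM in wild-type females. Of 34 tested genes listed as higher in adult females, 7 were higher and 19 lower than in juvenile wild-type (median −1.22). Membership of these lists is not a sex difference measured in every gene here. In males the 3 mutant libraries lay between at 8 of these 34, where 2.76% of all tested genes did, and below both ages at 4, where 8.93% did. The wild-type male libraries fell with age at 23 of the 34, against 30.7% of all tested genes, so 2.76% is not a like baseline either. In females the mutants lay below both ages at 10 of them, where 12.9% of all tested genes did, and between at 7 where wild-type rose (7.75% of all tested genes) and at 1 where it fell (5.77%). Wild-type females rose at 20 of the 34 and fell at 9, against 35.7% and 42.8% of all tested genes.

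**Figure D5:**
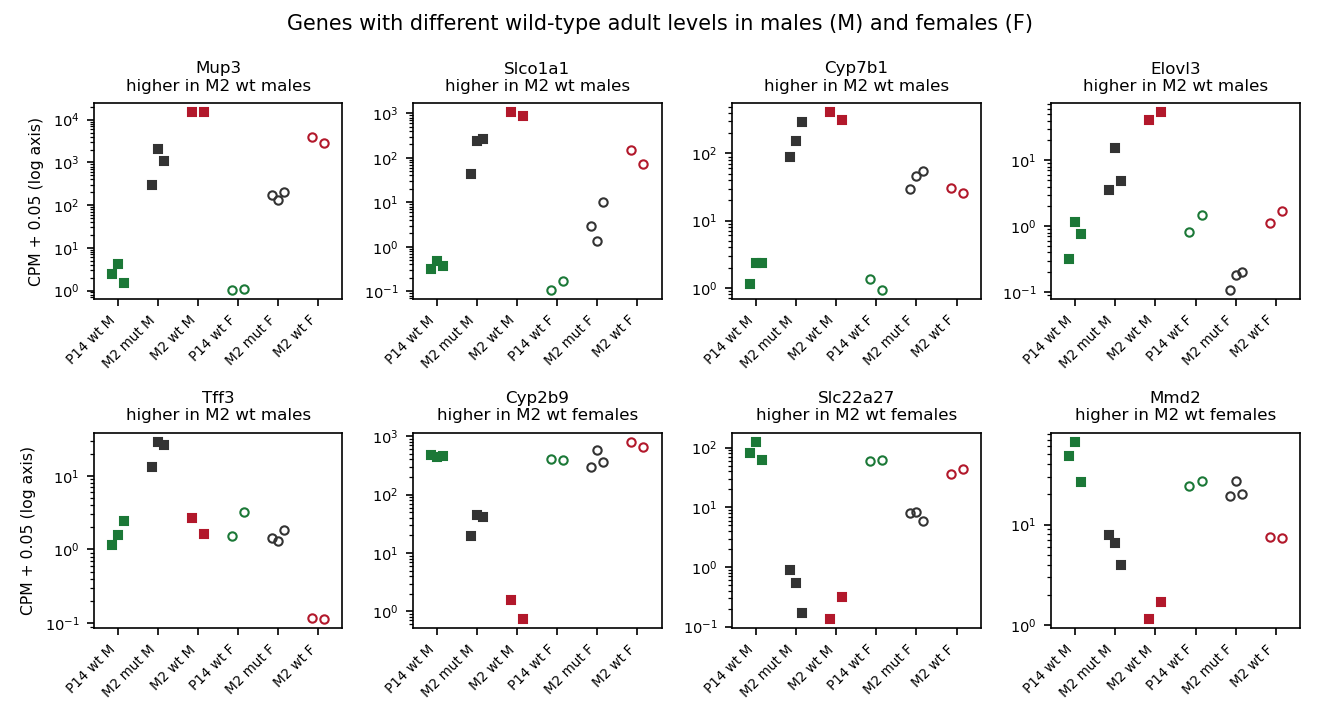
CPM by library on a log axis (0.05 added) for 8 genes, split by sex, in juvenile wild-type, adult mutant and adult wild-type. For Mup3, Slco1a1 and Elovl3 the adult mutant males lie between juvenile and adult wild-type males, and for Slc22a27 the adult mutant females lie below the wild-type females of both ages.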

How the data were processed

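The data are the read counts per gene that the authors deposited for 22 hepatocyte RNA-seq libraries, made from polyadenylated RNA and read as 75 bp single ends with strand kept, per the labels. The submitters' processing notes name the build mm9 and list DESeq2 1.14.1, bedtools, HTSeq 0.6.1p1 and STAR 2.4.2a, with no role for any. A normalised table was not used. Genes were tested with edgeR 4.0.16 (limma 3.58.1, R 4.3.3): filterByExpr left 13493 of 24422 genes (5824 had no count), libraries were scaled by TMM, and the quasi-likelihood test was fitted to all 22 libraries in 8 groups of age, genotype and sex, leaving 14 residual degrees of freedom. Sexes were weighted equally and p-values adjusted by Benjamini-Hochberg over all tested genes. On simulated counts the fit recovered 73% of genes changed by 1 log2 unit and 97% of those changed by 2, in a simulation of the adult mutant against juvenile wild-type comparison over 13184 genes, with 9 false calls. Only 100 genes of each size, none at very low levels, were changed, and the others had the same mean in every group. The real groups differ at far more genes, so these rates need not hold for them. Rn45s, a ribosomal RNA entry that stayed in the totals, took 6.19 to 32.6% of the counts.

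Members, gene lists and the placement rule were chosen with earlier results of these data known. Named genes were taken from Ezh1, Ezh2, Eed and Suz12; per placement and direction the 5 of largest size whose libraries did not overlap (and whose log2 CPM averaged 2 or more); per list up to 3 per direction with the smallest p; and 5 per direction for the sex difference. Other genes are named only as members of a count. Not every gene chosen by these rules is described, and some are not reported here. Folds over a group at 0 set that group at 3 counts. Replicate numbers recur across groups, but same-numbered libraries did not deviate together (62 pairs, 11 with a correlation above 0.1, median −0.02), so they were not treated as pairs. Count totals set the precision of low values. No interval for counting error alone is given, and the intervals of log2 differences belong to the fit across libraries. Alternatives tried were DESeq2 size factors, no count filter, DESeq2 1.42.0, limma-voom with quality weights, only the 15 libraries of the 3 groups, a replicate block, a minimum difference of 1 log2 unit, an adjusted p under 0.01, and leaving out each library in turn.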

Additional observations from a re-analysis of the deposited data

Results flagged for a closer look

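In 244 groups of 4 to 6 libraries, covering the named genes and the position measures, 22 had a highest or lowest library apart from the others by Dixon's 95% value. The rule is set to flag about 1 in 20 by chance, for continuous values from a single population. These groups hold counts and both sexes, and a single count among zeros is always flagged, so 1 in 20 is not a like baseline. Among the adult mutants, male 1 was the lowest for the falling age genes at −2.5% of the way to the adult level and the highest for Anxa2 at 48.5 CPM. Male 2 was the highest for Cyp27a1 (278 CPM) and Elovl3 (15.2 CPM), and male 3 for Ezh1 (2.13 CPM) and Sult2a8 (378 CPM). Among the juvenile wild-type libraries, female 1 was the highest for Afp (261 CPM), H19 (8202 CPM) and Zic1 (0.0587 CPM), and female 2 for Cldn7 (0.237 CPM), Hopx (10.6 CPM) and Igf2bp1 (0.0591 CPM). Male 2 was the highest for Gbe1 (63.3 CPM), Slc10a2 (0.508 CPM) and Tdo2 (780 CPM), and male 1 for Cdkn2b (0.0908 CPM). Among the adult wild-type libraries, male 1 was the lowest for Anxa2 (1.45 CPM) and Scd1 (3516 CPM). Female 1 was the highest for Cdkn2b and Cldn7 (each 0.0662 CPM) and Ezh1 (10.6 CPM), and female 2 for Hnf4a (752 CPM). The values under 0.1 CPM are single counts.

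The change from juvenile wild-type to adult mutant differed between males and females, by the male minus female term of the edgeR fit, at 10 named genes. It was higher in males for Slc19a1 (log2 difference 1.89), Eps8l2 (2.09), Elovl3 (6.83), Sgk2 (1.74) and Tff3 (4.40). It was higher in females for Slc22a27 (−4.30), Cyp2b9 (−3.75), 9030619P08Rik (−2.54), Esr1 (−2.08) and Mmd2 (−2.71). Of these 10, the calls of Elovl3, Esr1, Mmd2, Sgk2 and Tff3 were lost when a juvenile wild-type female was left out. The adjusted p-values of the 10 ran from 0.002 to 0.0077.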

How the results depend on the processing

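The alternatives that fitted the differences again kept the direction of every called difference of a named gene that they tested. The call was lost in 174 combinations of named gene, difference and alternative. The minimum difference of 1 log2 unit and the adjusted p under 0.01 were applied to the placements only. The genes above both ages stayed within 1.5 times under every alternative (1320 to 1654 when each library was left out). So did the counts higher and lower than juvenile wild-type in the alternatives that fitted the differences again. The difference between the sexes was the least stable: the 13 genes with the higher change in males became 79 with DESeq2, 1180 with limma-voom and 26 with the 15 libraries only, and 3 to 283 when each library was left out. The 17 with the higher change in females became 36 without the count filter, 99 with DESeq2, 963 with limma-voom, 43 with the 15 libraries only and 29 with the replicate block, and 4 to 597 when each library was left out.

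A minimum difference of 1 log2 unit gave 110 genes at the juvenile level below adult, 471 at the adult level above juvenile and 461 below it. Of these, 95, 390 and 422 held the same placement in the main fit. It also gave 65 and 186 between (above and below juvenile), 91 below both and 10285 in no placement. An adjusted p under 0.01 gave 643 and 595 at the juvenile level (above and below adult), of which 548 and 506 held the same placement in the main fit. It gave 141 and 124 between, and 449 below both. With limma-voom 849 and 558 were between, 1577 below both and 3150 in no placement, and without the count filter 11034 were in no placement. These settings change the threshold or the genes tested; the cause of the limma-voom counts was not tested. When each library was left out, the juvenile level below adult held 550 to 1141 genes, between 208 to 449 and 233 to 398, below both 627 to 1074, and the genes lower than adult wild-type numbered 1659 to 2930. The replicate block gave 3296 higher and 3038 lower than juvenile wild-type; besides the 29 genes above, it moved no count by over 1.5 times. Mutant male 3 had the fewest counts, which limits what can be seen at low levels.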
